A study of Homo sapiens with 12 samples.

Results

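The genes described here encode the enzymes and regulators of cholesterol and fatty acid synthesis. The list named 34 genes, and a gene was measured where the array had a probe set annotated to that gene alone, with the probe set of the highest mean taken for each gene. This gave 33 measured genes out of 18239 on the array, and all 33 met the condition for testing, a log2 value no lower than 5 on 3 or more arrays, as did 15173 genes in all. FDFT1, which encodes squalene synthase, had no such probe set and was not measured. The samples were total RNA from the human lines ARP1, JJN3 and RPMI-8226, labelled as multiple myeloma, a cancer of antibody-secreting plasma cells. Each line was kept without drug (Control), or given CPI203 at 0.01 µM, lenalidomide at 5 µM with dexamethasone at 0.05 µM (LenDex), or all 3 drugs (Combo), for 6 h, on 1 array per line and treatment, so that each treatment had 3 arrays and the lines served as replicates. CPI203 inhibits the BET bromodomain proteins, which bind acetylated chromatin and promote transcription. Lenalidomide makes cereblon, part of a ubiquitin ligase, take up Ikaros and Aiolos for degradation, and dexamethasone activates the glucocorticoid receptor. Lenalidomide and dexamethasone were never given apart, so their effects cannot be told apart here.

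Cells make cholesterol from acetyl-CoA through mevalonate, isoprenoid pyrophosphates, squalene and lanosterol, and they make fatty acids from the same acetyl-CoA through malonyl-CoA. The genes of both routes are switched on by the sterol regulatory element-binding proteins, encoded by SREBF1 and SREBF2. When membrane sterol is low, the escort protein SCAP carries these precursors from the endoplasmic reticulum to the Golgi, where they are cut and released. The INSIG proteins hold SCAP back when sterol is high, and INSIG1 is itself a target of the released factors. The released factors are known to act on promoters together with NF-Y, which binds CCAAT boxes.

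Promoter windows from 250 bases before to 50 bases after the annotated start were taken from RefSeq on GRCh38.p14 for 30 of the 34 genes. ACAT2, FDFT1, SQLE and FASN had no entry. The 5 windows that follow belong to genes on which the results turn, MSMO1 and NSDHL for LenDex and INSIG1 and IDI1 for CPI203, and to SREBF2, the 1 gene whose window held TCACNCCAC. Each is written 5′ to 3′ along the gene's strand. Capitals mark CCAAT read on either strand, so that ATTGG is the same box on the other strand, and in SREBF2 also TCACCCCAC.
MSMO1, chr4:165327419-165327718, plus strand: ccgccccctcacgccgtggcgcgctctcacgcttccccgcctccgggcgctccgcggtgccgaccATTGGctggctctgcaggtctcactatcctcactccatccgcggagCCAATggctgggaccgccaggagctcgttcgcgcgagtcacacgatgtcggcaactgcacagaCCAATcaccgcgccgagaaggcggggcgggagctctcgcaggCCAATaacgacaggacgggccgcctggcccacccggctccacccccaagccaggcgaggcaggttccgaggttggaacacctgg
NSDHL, chrX:152830813-152831112, plus strand: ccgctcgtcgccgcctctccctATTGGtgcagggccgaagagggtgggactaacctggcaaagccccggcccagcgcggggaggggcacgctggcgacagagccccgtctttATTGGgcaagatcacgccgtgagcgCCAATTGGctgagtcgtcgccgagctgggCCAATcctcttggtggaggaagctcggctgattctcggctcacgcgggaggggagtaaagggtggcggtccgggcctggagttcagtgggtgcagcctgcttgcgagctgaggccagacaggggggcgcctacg
INSIG1, chr7:155297628-155297927, plus strand: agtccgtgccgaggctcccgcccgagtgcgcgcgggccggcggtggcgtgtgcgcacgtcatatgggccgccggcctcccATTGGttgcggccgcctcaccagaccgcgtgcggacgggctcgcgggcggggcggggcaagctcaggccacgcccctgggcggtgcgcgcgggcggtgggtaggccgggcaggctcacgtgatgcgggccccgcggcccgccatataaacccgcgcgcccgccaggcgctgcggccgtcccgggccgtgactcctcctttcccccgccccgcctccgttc
IDI1, chr10:1048837-1049136, minus strand: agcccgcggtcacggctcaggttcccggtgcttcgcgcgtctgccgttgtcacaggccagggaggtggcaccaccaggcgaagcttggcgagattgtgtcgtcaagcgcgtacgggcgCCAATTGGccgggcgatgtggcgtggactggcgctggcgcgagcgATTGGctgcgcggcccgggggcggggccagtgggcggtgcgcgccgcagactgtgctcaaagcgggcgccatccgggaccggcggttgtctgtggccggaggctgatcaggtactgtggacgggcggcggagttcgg
SREBF2, chr22:41832855-41833154, plus strand: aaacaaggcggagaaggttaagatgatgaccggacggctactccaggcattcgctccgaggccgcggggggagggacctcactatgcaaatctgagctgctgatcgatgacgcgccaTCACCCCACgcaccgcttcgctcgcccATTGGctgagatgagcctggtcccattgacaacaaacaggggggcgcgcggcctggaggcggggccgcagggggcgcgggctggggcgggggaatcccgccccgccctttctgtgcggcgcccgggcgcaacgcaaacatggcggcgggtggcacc
CCAAT on either strand occurred 4 times in the MSMO1 window, 5 times in that of NSDHL, 3 times in that of IDI1 and 1 time each in those of INSIG1 and SREBF2. In NSDHL and IDI1 a forward and a reverse box overlapped as CCAATTGG. Over all windows of the 30 genes, CCAAT was found in 25 of 42, or 59.5%, against 34.6% of the 35116 windows of all genes. TCACNCCAC was found in 1 of 42, or 2.38%, against 1.13%, and CACGTG in 5 of 42, or 11.9%, against 7.26%. IDI1 has 3 windows in the table, and the one with the most boxes is shown. The INSIG1 window also holds a CACGTG, left in lower case. These are matches of letters and were not tested for binding.

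Deposited values are log2 levels, so a difference of 1 is a doubling, and levels of different probe sets cannot be set against each other. The array medians lay between 5.304 and 5.375. The arrays labelled JJN3 and RPMI-8226 went in part against their myeloma label. Of 8 plasma cell markers the median level was 11.56 to 11.75 on the ARP1 arrays, 6.99 to 8.48 on those labelled JJN3 and 6.73 to 8.63 on those labelled RPMI-8226. SDC1, the plasma cell surface proteoglycan, averaged 12.03, 5.38 and 5.19 in that order, while MS4A1, the B cell antigen CD20, averaged 4.95, 11.73 and 11.71. IRF4, a factor of plasma cells and activated B cells, averaged 12.05, 12.71 and 12.95 and was high in every line. The median of the 7 measured B cell markers was 5.62 to 5.99 on the ARP1 arrays, 9.60 to 10.02 on the JJN3 arrays and 9.28 to 9.53 on the RPMI-8226 arrays. Not all of them differed. In the order ARP1, JJN3 and RPMI-8226, PAX5 averaged 7.13, 7.01 and 7.14, and BANK1 was low throughout, at 4.67, 4.65 and 4.78. JJN3 and RPMI-8226 arrays correlated at 0.963 to 0.981 with each other over all genes tested, against 0.877 to 0.887 for JJN3 with ARP1. The JJN3 Control array also stood apart in immunoglobulin probe sets, with IGKC at 9.32 against 5.11 to 5.55 on the other JJN3 arrays. Line names below are therefore names of arrays, and results are given also without the JJN3 Control array and with JJN3 and RPMI-8226 averaged as 1 line. T cell, monocyte and macrophage, and fibroblast markers had medians of 4.78 to 5.36, erythroid markers 5.02 to 6.56, and epithelial markers 4.97 to 7.17, highest on the JJN3 arrays. Single markers stood above these medians. HBG1, a fetal globin, had a mean of 12.31 over the ARP1 arrays, 13.27 over those of JJN3 and 7.66 over those of RPMI-8226, and KLF1, an erythroid factor, was 8.34 on the JJN3 Control array. KRT18, an epithelial keratin, averaged 9.20 in JJN3 against 6.76 and 5.57 in ARP1 and RPMI-8226, and CD3D, a T cell receptor subunit, 7.51 against 5.10 and 5.18. The part of these differences in the results was not tested. In bulk RNA, fewer cells of a type and less RNA per cell cannot be told apart. Nothing in the labels gives separate cultures within a line. In treatment comparisons the p-values rest on how far treatment differences vary between lines, pooled over all treatments. In an average effect each line enters with more than 1 pair of arrays, counted as separate although they share a line. The standard errors (SE) of average effects can therefore be smaller than the spread of the effect between lines would give.

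With LenDex, SQLE, CYP51A1, MSMO1 and NSDHL fell, which are 1 of the 2 measured enzymes between squalene and lanosterol and 3 of the 9 between lanosterol and cholesterol. The regulator SREBF1 and the fatty acid enzyme ACACA fell as well. The 6 arrays with lenalidomide and dexamethasone (LenDex and Combo) were set against the 6 without (Control and CPI203), within lines. On this average effect 6 of the 33 genes passed an adjusted p of 0.05, or 18.2%, against 4.25% of all genes tested. All 6 were lower, against 2.52% of all genes called lower. They were MSMO1, CYP51A1, ACACA, SQLE, NSDHL and SREBF1. Of the 33 genes 25 lay below 0 and 8 above, with a median log2 difference of -0.18, against a median of 0.01 over all genes tested. After cyclic loess normalisation 58.9% of all called genes were higher in place of 40.6%, while the 5 genes of the list then called were all lower.

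MSMO1, the sterol C4-methyl oxidase that acts on lanosterol-derived methyl sterols, showed the smallest p. Levels here and below are log2 values in the order Control, CPI203, LenDex and Combo. MSMO1 read 10.21, 10.15, 9.93 and 9.80 in ARP1, 10.65, 10.60, 10.06 and 10.01 in JJN3, and 10.82, 10.75, 10.29 and 9.93 in RPMI-8226. In each line the 2 arrays with LenDex were below the 2 without, and the largest step was in RPMI-8226. The average effect was -0.52 ± 0.08 (SE, 12 arrays), or 1.44-fold lower, with an adjusted p of 0.0112. CYP51A1, the lanosterol demethylase of the cytochrome P450 family, followed. CYP51A1 read 10.57, 10.38, 9.97 and 9.82 in ARP1, 10.63, 10.64, 10.39 and 10.49 in JJN3, and 11.16, 10.86, 10.55 and 10.49 in RPMI-8226. The LenDex and Combo arrays were the lowest of each line, with the widest gap in ARP1. Its average effect was -0.42 ± 0.09, or 1.34-fold lower, with an adjusted p of 0.0278.

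SQLE encodes squalene epoxidase, which adds oxygen to squalene before ring closure. SQLE read 9.60, 9.31, 8.94 and 8.80 in ARP1, 11.20, 11.30, 11.16 and 11.02 in JJN3, and 11.51, 11.45, 11.08 and 10.98 in RPMI-8226. Both arrays with LenDex were the lowest of each line, though in JJN3 the LenDex array differed from its control by only -0.04. The average came to -0.40 ± 0.09, or 1.32-fold lower, with an adjusted p of 0.0371. NSDHL, the dehydrogenase that removes the C4 carboxyl group in the step after MSMO1, had the same adjusted p. NSDHL read 8.60, 8.82, 8.42 and 8.29 in ARP1, 8.79, 8.92, 8.63 and 8.65 in JJN3, and 9.07, 9.30, 8.67 and 8.91 in RPMI-8226. In each line both arrays with LenDex were the lowest. The average came to -0.32 ± 0.07, or 1.25-fold lower.

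ACACA, the acetyl-CoA carboxylase that makes malonyl-CoA for fatty acid synthesis, was the 1 fatty acid enzyme called. ACACA read 9.42, 9.46, 9.27 and 9.19 in ARP1, 9.10, 9.0, 8.55 and 8.52 in JJN3, and 9.25, 9.24, 8.77 and 9.03 in RPMI-8226. Its fall was largest in JJN3, where LenDex and Combo lay below both other arrays. The average effect was -0.36 ± 0.08, or 1.28-fold lower, with an adjusted p of 0.0365, and after cyclic loess the adjusted p was 0.0753. SREBF1, which encodes the factor best known for driving fatty acid synthesis, also fell. SREBF1 read 9.63, 9.78, 9.05 and 9.27 in ARP1, 6.92, 7.30, 6.71 and 6.91 in JJN3, and 7.43, 7.86, 6.83 and 7.63 in RPMI-8226. ARP1 stood well above the other lines in every treatment, and LenDex alone gave the lowest level of each line. The average effect was -0.42 ± 0.09, or 1.34-fold lower, with an adjusted p of 0.0384.

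**Figure D1:**
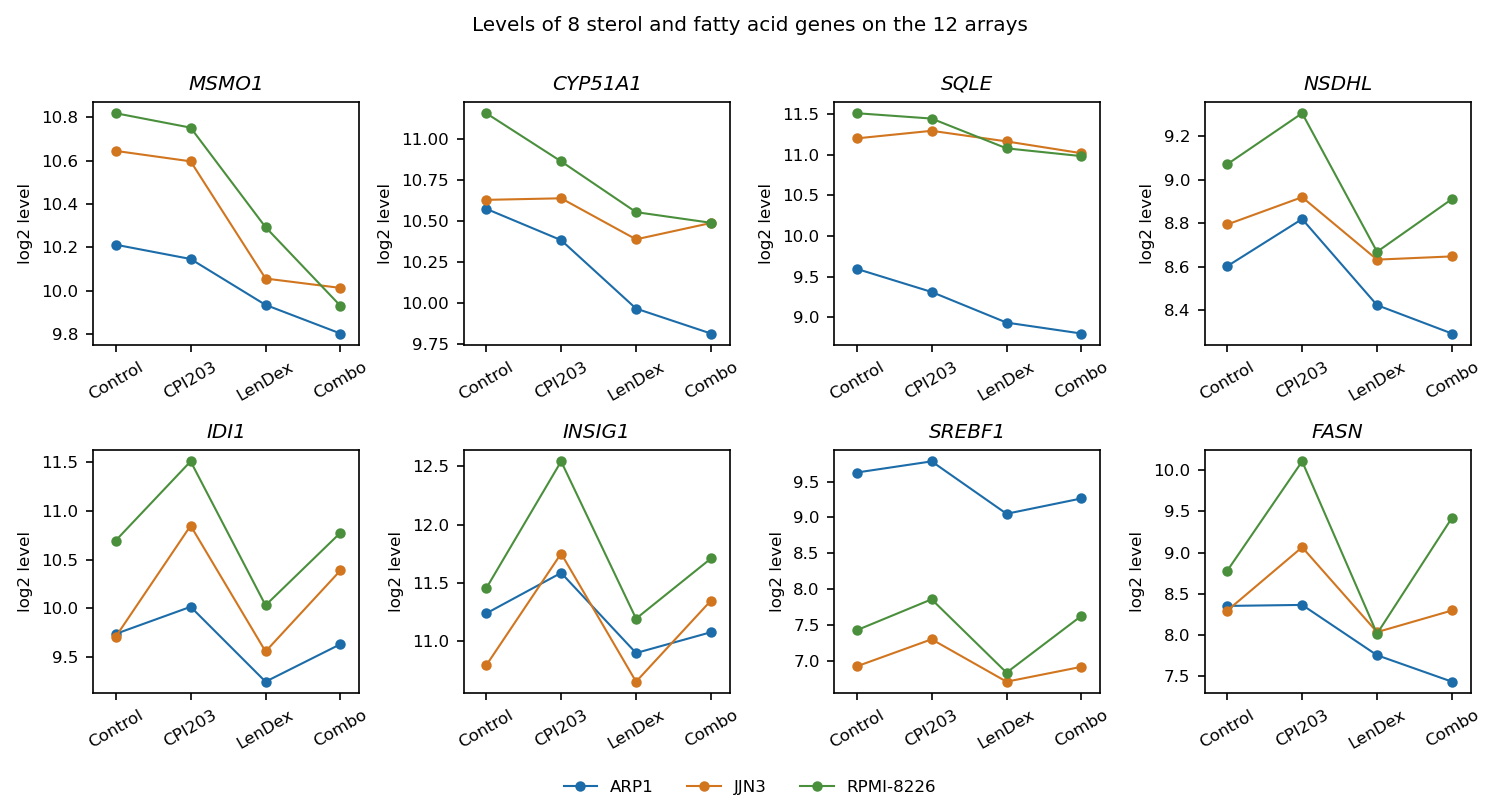
Log2 level (y axis) of 8 genes in the 4 treatments (x axis), with 1 point per array and a line joining the arrays of each cell line. MSMO1, CYP51A1, SQLE and NSDHL are low in LenDex and Combo, whereas IDI1, INSIG1, SREBF1 and FASN are highest with CPI203 alone in each line and lower again when LenDex is added.

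Other genes missed the threshold, some of them with larger differences. HMGCS1 makes the HMG-CoA from which mevalonate is formed. HMGCS1 read 8.81, 8.83, 8.49 and 8.50 in ARP1, 10.28, 11.14, 9.89 and 10.33 in JJN3, and 11.40, 12.10, 9.98 and 10.72 in RPMI-8226. Every pair was lower with LenDex, with means of -0.33 (ARP1), -0.60 (JJN3) and -1.40 (RPMI-8226), and the average effect was -0.78 ± 0.19 with an adjusted p of 0.0508. The other probe set of HMGCS1 gave -0.79 with an adjusted p of 0.00916 when all probe sets were fitted. DHCR7, the reductase of the last step to cholesterol, gave -0.47 ± 0.13 (adjusted p 0.0679). DHCR7 read 9.79, 9.71, 9.57 and 9.54 in ARP1, 9.57, 9.75, 9.38 and 9.19 in JJN3, and 9.94, 9.64, 9.27 and 8.65 in RPMI-8226. Its lowest value was RPMI-8226 with Combo, and the ARP1 arrays spanned the smallest range. FASN, the fatty acid synthase itself, gave -0.67 ± 0.21 (adjusted p 0.115). FASN read 8.35, 8.37, 7.76 and 7.43 in ARP1, 8.30, 9.07, 8.04 and 8.30 in JJN3, and 8.78, 10.11, 8.02 and 9.42 in RPMI-8226. LenDex was below its control in every line, but the RPMI-8226 Combo array stayed above the RPMI-8226 control. SCD, the stearoyl-CoA desaturase, gave -0.23 ± 0.08 (adjusted p 0.134). SCD read 11.84, 11.82, 11.47 and 11.46 in ARP1, 11.96, 11.94, 11.84 and 11.88 in JJN3, and 12.09, 12.21, 11.73 and 12.09 in RPMI-8226. All 12 arrays lay within 11.46 to 12.21 for this probe set. Further SCD probe sets, with lower mean levels of 8.43 to 9.10, gave -0.47, -0.41 and -0.56 with LenDex. With CPI203 they gave 0.31, 0.41 and 0.48, against 0.08 for the one used. None of them passed for either drug when all probe sets were fitted.

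By role, 3 of 9 enzymes of the lanosterol to cholesterol steps were called lower, against 2.52% of all genes, with a median of -0.32 over the 9. Of the 2 squalene and lanosterol enzymes measured 1 was lower, of 6 sterol sensing and transport genes 1, of 8 fatty acid genes 1, and none of the 5 mevalonate or 3 isoprenoid genes passed. Groups of 2 to 9 genes are too small to set these counts apart from each other. LSS, the lanosterol synthase next to SQLE in the pathway, gave an average of -0.08 ± 0.16. TM7SF2 and LBR, which both reduce the sterol C14 double bond, gave -0.01 and 0.12. EBP, the sterol isomerase, gave 0.02, and SC5D, the sterol C5 desaturase, gave -0.23. HSD17B7, the ketosteroid reductase that works with MSMO1 and NSDHL, gave -0.33 with an adjusted p of 0.163. ACAT2, which joins acetyl-CoA units, gave -0.05, and the kinases MVK and PMVK gave -0.23 and -0.006. MVD, the decarboxylase after them, gave 0.06, and GGPS1, which makes geranylgeranyl pyrophosphate, gave 0.13. The 3 desaturation and elongation genes FADS1, FADS2 and ELOVL6 gave 0.004, 0.24 and 0.30, none of them past the threshold. By the mean over probe sets the values of LBR and FADS2 changed sign, to -0.11 and -0.05.

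The direction within matched arrays was also counted. A matched pair is 2 arrays of 1 line that differ only by the drug, which gives 6 pairs per drug, 2 from each line and so not independent. In all, 14 genes were lower with LenDex in 6 of 6 pairs, or 42.4% of the 33, against 8.28% of all genes tested. They were HMGCS1, IDI1, FDPS, SQLE, CYP51A1, MSMO1, NSDHL, DHCR7, INSIG1, SREBF1, ACLY, ACACA, FASN and SCD. No gene of the list was higher in 6 of 6 pairs, against 6.31% of all genes. The count of 14 stayed between 12 and 17 over the mean of probe sets, cyclic loess, each line left out and the JJN3 Control left out, where 6.52% to 15.1% of all genes met the same condition. It was 14 of 33 without the JJN3 Control array, against 10.4%. The map of differences by pair shows these rows. This count carries no test and was added after the data were seen.

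**Figure D2:**
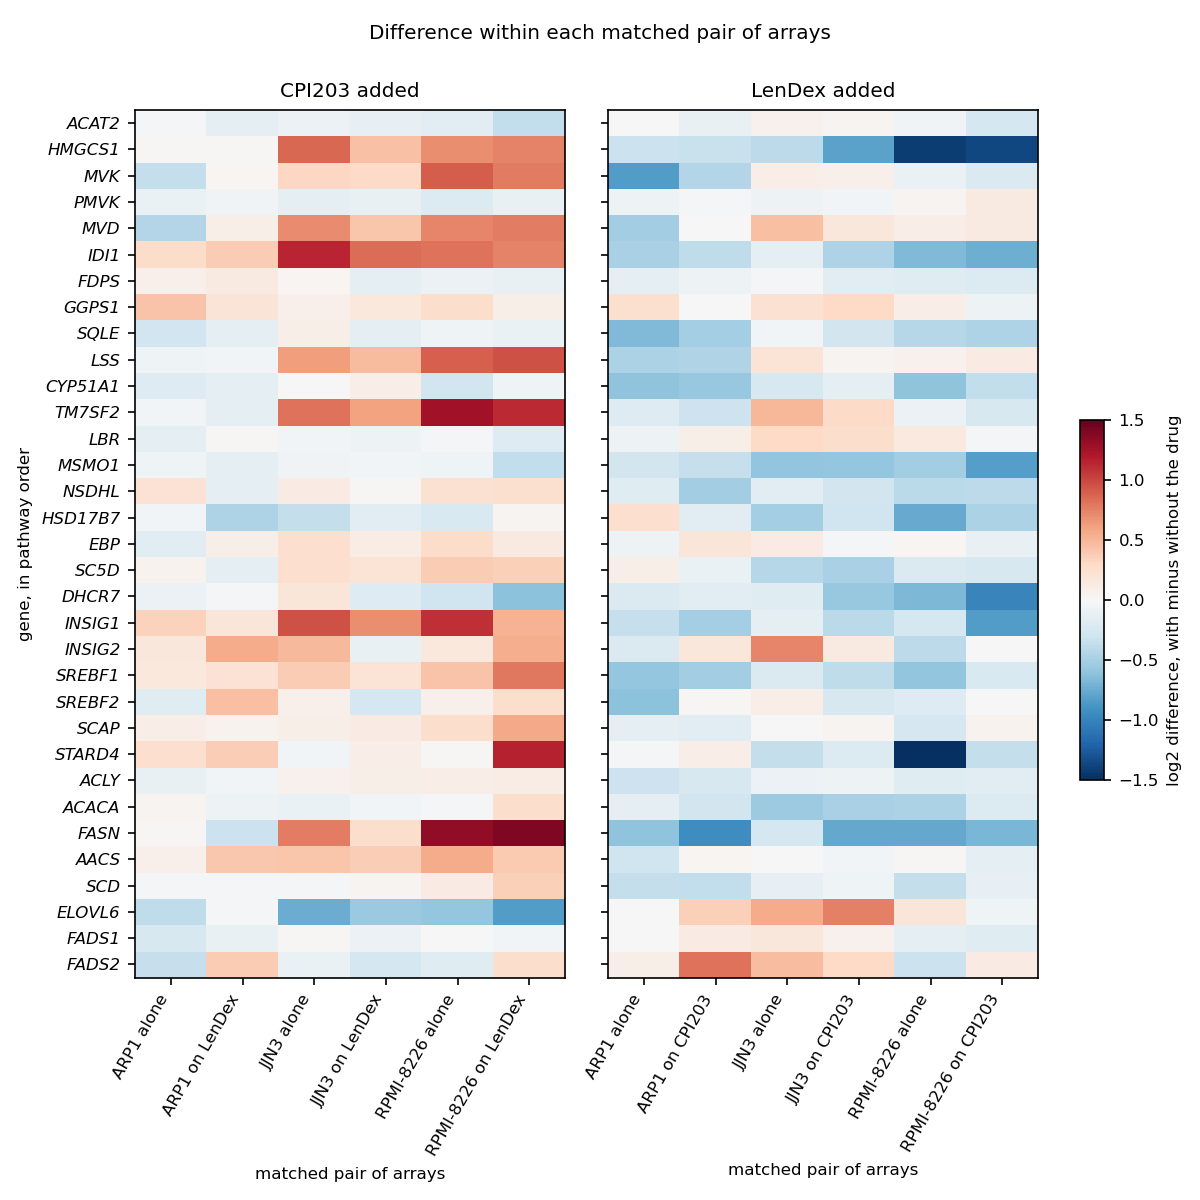
Log2 difference, with minus without the drug (colour), for 33 genes in pathway order (y axis) in the 6 matched pairs of arrays for each drug (x axis). In the LenDex panel 14 rows are blue in all 6 columns, and in the CPI203 panel 7 rows are red in all 6. Of these, HMGCS1, IDI1 and INSIG1 are palest in ARP1, whereas GGPS1 is darkest in the ARP1 pair without LenDex.

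The LenDex calls rested on several arrays together. Without ARP1 4 of the 33 genes were called, against 6.7% of all genes, and 2 of these 4 were among the 6. Without the JJN3 Control array 4 were called, against 1.59% of all genes, and 3 of these were among the 6. Without the JJN3 arrays or without the RPMI-8226 arrays none was called, where limma then called 2 and 5 of all genes and 12 of the list reached an unadjusted p under 0.05 in each case. With JJN3 and RPMI-8226 averaged as 1 line none was called and 13 reached an unadjusted p under 0.05. The sign of the 6 called genes was negative in all these fits. Probe sets of a gene mostly moved alike. All 3 tested probe sets of MSMO1, both of CYP51A1 and all 4 of SQLE were lower. Of the 3 for SREBF1, 1 with a low mean level of 5.94 went the other way at 0.26. The 2 further probe sets of ACACA, with mean levels of 5.20 and 5.71, gave -0.05 and -0.15.

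With CPI203, a feedback gene of sterol sensing and the isoprenoid isomerase were higher, and an elongase was lower. The 6 arrays with CPI203 (CPI203 and Combo) were set against the 6 without (Control and LenDex). In limma 5 genes passed, or 15.2% of the 33, against 7.28% of all genes tested. IDI1, INSIG1, AACS and SREBF1 rose, against 3.30% of all genes called higher, and ELOVL6 fell, against 3.99% called lower. The median log2 difference of the 33 was 0.12, with 21 genes above 0 and 12 below, against a median of -0.003 over all genes. SREBF1 was the 1 gene called for both drugs, in opposite directions.

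IDI1 is the isomerase that makes dimethylallyl pyrophosphate, the starting unit of isoprenoid chains. IDI1 read 9.74, 10.02, 9.25 and 9.63 in ARP1, 9.71, 10.85, 9.56 and 10.39 in JJN3, and 10.70, 11.51, 10.03 and 10.78 in RPMI-8226. CPI203 alone gave the highest level of each line and LenDex alone the lowest. The average effect of CPI203 was 0.70 ± 0.12, or 1.62-fold higher, with an adjusted p of 0.0183, and that of LenDex was -0.48 ± 0.12 with an adjusted p of 0.0549. INSIG1, the protein that retains SCAP, had the order of arrays that IDI1 showed in each line. INSIG1 read 11.24, 11.59, 10.90 and 11.08 in ARP1, 10.79, 11.75, 10.65 and 11.35 in JJN3, and 11.45, 12.54, 11.19 and 11.71 in RPMI-8226. Combo was above Control in JJN3 and RPMI-8226 and below it in ARP1, as for IDI1. The average effect of CPI203 was 0.63 ± 0.11, or 1.55-fold higher (adjusted p 0.0191), and that of LenDex was -0.41 ± 0.11 (adjusted p 0.0665). All 3 INSIG1 probe sets were called higher with CPI203 when all probe sets were fitted, with 0.63 to 0.88, and both IDI1 probe sets likewise, with 0.70 and 0.77.

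AACS encodes acetoacetyl-CoA synthetase, which feeds ketone bodies into lipid synthesis. AACS read 9.15, 9.22, 8.85 and 9.25 in ARP1, 10.03, 10.44, 10.04 and 10.41 in JJN3, and 9.94, 10.50, 9.96 and 10.35 in RPMI-8226. Both arrays with CPI203 were the highest of each line. Its average effect was 0.37 ± 0.07, or 1.29-fold higher, with an adjusted p of 0.0245. SREBF1, whose levels are given above, had an average effect of 0.36 ± 0.09, or 1.29-fold higher, with an adjusted p of 0.0467. The adjusted p was 0.0581 for that probe set when all probe sets were fitted. Another SREBF1 probe set, with a mean level of 5.94, went the other way at -0.08, and the last, with a mean level of 5.34, gave 0.37. ELOVL6, which lengthens palmitate to stearate, was the 1 gene that fell. ELOVL6 read 5.73, 5.34, 5.72 and 5.70 in ARP1, 6.51, 5.77, 7.07 and 6.52 in JJN3, and 7.19, 6.61, 7.38 and 6.54 in RPMI-8226. In RPMI-8226 both CPI203 arrays were the lowest, and the ARP1 arrays were close to the lower limit of the filter. Its average effect was -0.52 ± 0.13, or 1.44-fold lower, with an adjusted p of 0.0426. All 3 ELOVL6 probe sets were lower, from -0.56 to -0.40.

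The 6 sterol sensing and transport genes all lay above 0 with CPI203, with a median of 0.30, where 7477 of all 15173 genes tested lay above 0. Beyond INSIG1 and SREBF1, INSIG2, the other retention protein, gave 0.30 ± 0.13 (adjusted p 0.187). INSIG2 read 6.81, 6.98, 6.59 and 7.16 in ARP1, 6.77, 7.25, 7.50 and 7.39 in JJN3, and 6.83, 6.99, 6.44 and 6.98 in RPMI-8226. Of its 3 probe sets another passed with CPI203 when all were fitted, with 0.55 (adjusted p 0.0425), and the last gave 0.01. LenDex gave the highest JJN3 level and the lowest ARP1 and RPMI-8226 levels. SCAP, the escort protein, gave 0.20 ± 0.08 (adjusted p 0.166). SCAP read 8.07, 8.16, 7.93 and 7.99 in ARP1, 7.95, 8.04, 7.95 and 8.08 in JJN3, and 8.0, 8.27, 7.75 and 8.32 in RPMI-8226. The levels of SCAP varied little outside RPMI-8226. SREBF2, the gene of the main activator of cholesterol synthesis, gave 0.07 with CPI203 and -0.16 with LenDex. SREBF2 read 8.91, 8.73, 8.29 and 8.74 in ARP1, 8.33, 8.40, 8.43 and 8.16 in JJN3, and 8.55, 8.63, 8.36 and 8.62 in RPMI-8226. The ARP1 LenDex array was low and the other 3 ARP1 arrays were not. Further SREBF2 probe sets gave -0.05 and -0.005 with CPI203, so its place above 0 depended on the probe set. STARD4, a carrier of free sterol between membranes, gave 0.31 ± 0.18 with CPI203 and -0.39 ± 0.18 with LenDex. STARD4 read 5.64, 5.90, 5.63 and 5.99 in ARP1, 7.66, 7.61, 7.30 and 7.41 in JJN3, and 8.06, 8.07, 6.56 and 7.72 in RPMI-8226. Its average for LenDex leaned on the RPMI-8226 LenDex array, at 6.56 against 8.06 in its control. All 5 STARD4 probe sets were lower with LenDex, and 1 of the other 4 passed when all probe sets were fitted, with -0.86 (adjusted p 0.0239).

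**Figure D3:**
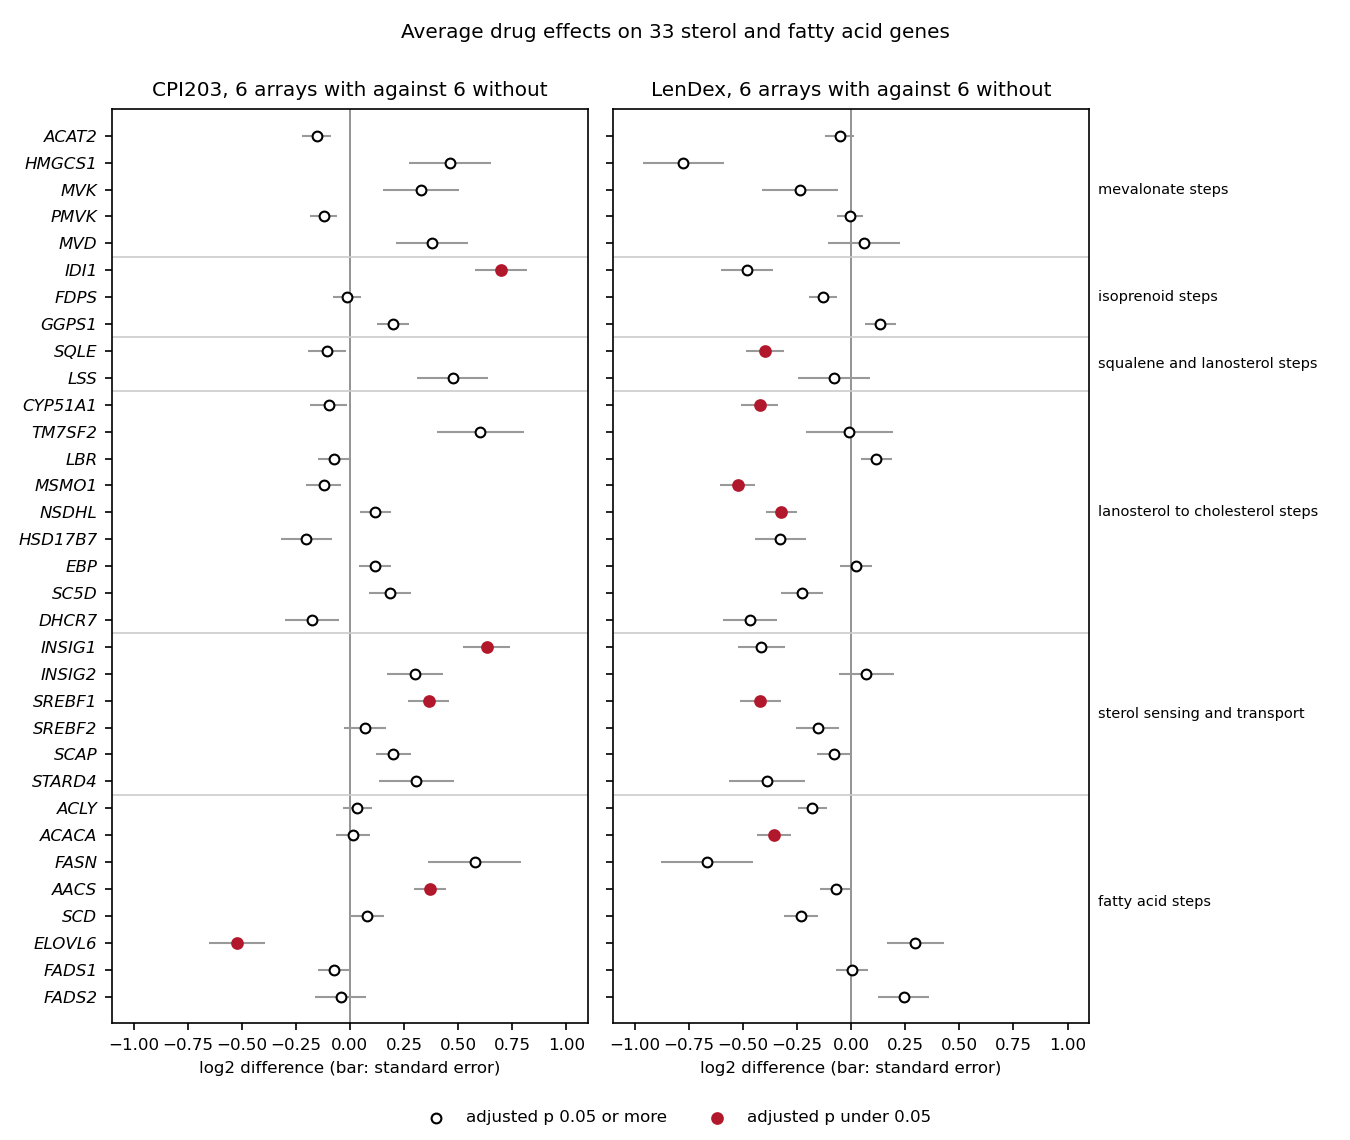
Average log2 effect (x axis, bar: SE) of CPI203 (left) and of LenDex (right), each from 6 arrays with against 6 without, for 33 genes in pathway order (y axis). Filled points passed an adjusted p of 0.05, which is 5 for CPI203 on both sides of 0 and 6 for LenDex, all left of 0.

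None of the 9 enzymes from lanosterol to cholesterol was called with CPI203, against 7.28% of all genes, and their median was -0.07. At that share so few genes can easily give no call. MSMO1 gave -0.12, CYP51A1 -0.10, DHCR7 -0.18 and HSD17B7 -0.20, while TM7SF2 gave 0.60 ± 0.20 (adjusted p 0.0975). Other probe sets passed when all were fitted, with 0.90 (adjusted p 0.0427) and 0.66 (adjusted p 0.0415) for TM7SF2 and 0.63 (adjusted p 0.0344) for LSS. Upstream, HMGCS1 gave 0.46 ± 0.19 (adjusted p 0.169), MVD 0.38 and MVK 0.33. FDPS, which makes farnesyl pyrophosphate, gave -0.01 with CPI203 and -0.13 with LenDex. FDPS read 11.24, 11.32, 11.11 and 11.24 in ARP1, 10.66, 10.69, 10.65 and 10.51 in JJN3, and 11.35, 11.27, 11.17 and 11.07 in RPMI-8226. JJN3 had the lowest FDPS level in every treatment. FASN gave 0.58 ± 0.21 (adjusted p 0.133), and ACLY, which splits citrate into acetyl-CoA, gave 0.03, with -0.18 for LenDex. ACLY read 11.97, 11.87, 11.66 and 11.62 in ARP1, 11.43, 11.49, 11.34 and 11.42 in JJN3, and 11.62, 11.72, 11.43 and 11.54 in RPMI-8226. ARP1 was slightly above the other lines in each treatment. Of the 33 genes, 7 were higher with CPI203 in 6 of 6 pairs, or 21.2%, against 7.61% of all genes tested. These were HMGCS1, IDI1, GGPS1, INSIG1, SREBF1, SCAP and AACS. Lower in 6 of 6 pairs were 4, or 12.1%, against 8.94%, namely ACAT2, PMVK, MSMO1 and ELOVL6. The counts for CPI203 and for LenDex use the same 12 arrays.

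The CPI203 calls changed strongly with the arrays used. Without ARP1 11 genes were called, 10 of them higher, or 33.3% of the 33, against 17.5% of all genes, so that the calls over all genes grew as well. Without the JJN3 arrays or the RPMI-8226 arrays none was called, as was the case for all genes tested, and 7 and 4 of the list reached an unadjusted p under 0.05. Without the JJN3 Control array 1 gene was called, IDI1 with 0.60 and an adjusted p of 0.0483, against 0.783% of all genes. With JJN3 and RPMI-8226 averaged none was called, and 7 reached an unadjusted p under 0.05. The count in 6 of 6 pairs was 7 by the mean of probe sets and after cyclic loess, and 16 of 33 in the 4 pairs left without ARP1, against 19.8% of all genes.

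Single treatments against Control, with 3 arrays each, called fewer genes. These comparisons share the Control arrays. For CPI203 against Control none of the 33 passed, against 0.00659% of all genes, and 8 of 33 reached an unadjusted p under 0.05, or 24.2%, against 16.2%. The smallest p belonged to INSIG1 with 0.80 ± 0.16 (adjusted p 0.0897), IDI1 with 0.74 ± 0.17 (adjusted p 0.103) and AACS with 0.35 ± 0.11 (adjusted p 0.163). All 3 were higher in 3 of 3 lines. Without ARP1, 6 genes passed, against 7.49% of all genes. For LenDex against Control none passed, against 0.461%, and 10 of 33 reached an unadjusted p under 0.05, or 30.3%, all lower, against 13.7%. MSMO1 gave -0.46 ± 0.11 (adjusted p 0.114), CYP51A1 -0.48 ± 0.12 (adjusted p 0.119) and ACACA -0.39 ± 0.11 (adjusted p 0.154), each lower in 3 of 3 lines. With a variance trend and robust moderation 2 genes passed in each of these comparisons, INSIG1 and IDI1 for CPI203, against 2.09% of all genes, and MSMO1 and CYP51A1 for LenDex, against 1.89%.

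With Combo against Control 3 genes fell, or 9.09% of the 33, against 9.15% of all genes called and 5.60% called lower. The share called was thus that of all genes. MSMO1 gave -0.64 ± 0.11, or 1.56-fold lower (adjusted p 0.0123), CYP51A1 -0.52 ± 0.12, or 1.44-fold lower (adjusted p 0.0291), and SQLE -0.50 ± 0.12, or 1.42-fold lower (adjusted p 0.0358), each lower in 3 of 3 lines. DHCR7 was close, with -0.64 ± 0.18 (adjusted p 0.0511), and HSD17B7 gave -0.53 (adjusted p 0.0811). For FASN the Control and Combo levels were 8.35 and 7.43 in ARP1 and 8.78 and 9.42 in RPMI-8226, with opposite signs. Without ARP1 6 genes were called, 3 higher and 3 lower, and only 1 of them was among the 3 genes called on all arrays. Without the JJN3 or the RPMI-8226 arrays none was called, without the JJN3 Control array 2, and with JJN3 and RPMI-8226 averaged none. Of all genes 16.2% were called without ARP1 and 2.01% without the JJN3 Control array, so the 6 of 33, or 18.2%, lie near the share of all genes.

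Adding LenDex to CPI203 called none of the 33, against 0.0461% of all genes, and 12 reached an unadjusted p under 0.05, 11 lower and 1 higher, or 36.4%, against 10.9%. MSMO1 gave -0.58 ± 0.11 (adjusted p 0.149), NSDHL -0.40 ± 0.10 (adjusted p 0.188) and INSIG1 -0.58 ± 0.16 (adjusted p 0.202), all lower in 3 of 3 lines. Adding CPI203 to LenDex called none, against 0% of all genes, and 5 reached an unadjusted p under 0.05, or 15.2%, against 14.9%. IDI1 gave 0.65 ± 0.17 (adjusted p 0.187), AACS 0.39 ± 0.11 (adjusted p 0.2) and SREBF1 0.41 ± 0.13 (adjusted p 0.23), all higher in 3 of 3 lines. Without ARP1, 2 genes passed in the last comparison, against 5.25% of all genes. Whether the effect of 1 treatment depended on the other was tested as an interaction. No gene of the list passed, against 0% of all genes, and none reached an unadjusted p under 0.05, against 3.11%. The smallest p belonged to INSIG1 with -0.34 ± 0.22, FADS2 with 0.34 ± 0.24 and STARD4 with 0.47 ± 0.35, each with an adjusted p of 1.

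Effects of CPI203 were larger in JJN3 and RPMI-8226 than in ARP1 for several genes, but no such difference passed the adjusted threshold. The test asks whether the line by drug terms differ from 0, in a fit that takes the drugs as additive. For CPI203 none of 33 passed, against 0.323% of all genes, and 7 reached an unadjusted p under 0.05, or 21.2%, against 14.7%. TM7SF2 gave the smallest p. TM7SF2 read 8.44, 8.40, 8.24 and 8.09 in ARP1, 7.64, 8.46, 8.13 and 8.74 in JJN3, and 8.31, 9.58, 8.22 and 9.34 in RPMI-8226. In ARP1 neither array with CPI203 was above the matched array without it, whereas both CPI203 arrays were the highest in JJN3 and RPMI-8226. Its effects in these 3 lines came to -0.09, 0.71 and 1.19 (adjusted p 0.0598). FASN had effects of -0.15, 0.52 and 1.37 in the same order (adjusted p 0.0864). LSS had effects of -0.05, 0.55 and 0.92 (adjusted p 0.0895). LSS read 8.79, 8.73, 8.32 and 8.28 in ARP1, 9.27, 9.90, 9.47 and 9.94 in JJN3, and 9.38, 10.27, 9.44 and 10.39 in RPMI-8226. In ARP1 the LSS level was lower in both LenDex arrays, and in the other lines it was higher in both CPI203 arrays. HMGCS1 (0.01, 0.65 and 0.72), MVK (-0.16, 0.30 and 0.85) and MVD (-0.18, 0.56 and 0.75) had the same order, and IDI1 was 0.33, 0.99 and 0.78.

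The size of the CPI203 effect, regardless of sign, was smallest in ARP1 in 19 of 33 genes, or 57.6%, against 48.1% of all genes, and the median effects of the 33 in ARP1, JJN3 and RPMI-8226, with sign, were -0.04, 0.07 and 0.21. For LenDex none passed the test between lines, against 0.369% of all genes, and 8 reached an unadjusted p under 0.05, or 24.2%, against 13.6%. HMGCS1 gave -0.33, -0.60 and -1.40 in ARP1, JJN3 and RPMI-8226 (adjusted p 0.116). LSS gave -0.46, 0.12 and 0.10 (adjusted p 0.221), and TM7SF2 gave -0.25, 0.39 and -0.17 (adjusted p 0.236). With a variance trend and robust moderation 6 genes passed for CPI203, among them FASN, TM7SF2 and LSS, against 4.44% of all genes, and 2 for LenDex, HMGCS1 and LSS, against 3.1%. The lines also differ in the lineage markers given above, and the part of that difference in these responses was not tested.

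Differences between lines were called for more of the genes than differences between treatments. The ARP1 arrays were set against the mean of JJN3 and RPMI-8226. The 4 arrays of a line are 1 line under 4 treatments, so this p covers the spread between arrays and not between cultures. In this contrast 26 of 33 genes passed, or 78.8%, against 49.5% of all genes. Lower in ARP1 were 19 genes, against 25.4% of all genes, and higher were 7, against 24.1%. The ARP1 arrays lay below all 8 other arrays for 13 genes and above them for 4. The share of all genes that did so was not counted, so these counts do not set the list apart.

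FADS2, the first desaturase of polyunsaturated fatty acids, had the largest difference. FADS2 read 7.02, 6.67, 7.10 and 7.49 in ARP1, 9.81, 9.71, 10.28 and 10.01 in JJN3, and 11.05, 10.87, 10.73 and 10.99 in RPMI-8226. The lines did not overlap, with RPMI-8226 highest and ARP1 lowest. The difference for ARP1 was -3.36 ± 0.12, or 10.3-fold lower (adjusted p 7.07e-09). FADS1, its neighbour gene and partner desaturase, had the same order. FADS1 read 9.37, 9.13, 9.36 and 9.25 in ARP1, 10.38, 10.40, 10.55 and 10.47 in JJN3, and 11.05, 11.05, 10.91 and 10.87 in RPMI-8226. The difference was -1.43 ± 0.08, or 2.70-fold lower (adjusted p 1.26e-07). SREBF1 was 2.23 ± 0.10 higher in ARP1, or 4.71-fold (adjusted p 2.71e-08). HMGCS1 was lower by 4.21-fold (-2.07 ± 0.20), SQLE by 4.14-fold (-2.05 ± 0.09) and STARD4 by 3.39-fold (-1.76 ± 0.19).

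SC5D (-1.31), MVK (-1.25), LSS (-1.22), AACS (-1.09), ELOVL6 (-1.08), MVD (-1.03), GGPS1 (-0.97) and ACAT2 (-0.46) were also lower in ARP1, in arrays that did not overlap with the others. IDI1 (-0.78), FASN (-0.78), NSDHL (-0.33), CYP51A1 (-0.47), MSMO1 (-0.36) and SCD (-0.32) were lower on average with overlapping arrays, and the last 3 were not called by the mean over probe sets, with adjusted p of 0.554, 0.482 and 0.0662. PMVK was 1.06 higher, or 2.08-fold, and EBP, LBR, ACACA, FDPS and ACLY were higher by 0.55, 0.25, 0.40, 0.31 and 0.28. Enzymes of neighbouring steps thus stood on opposite sides, such as MVK and PMVK. The 7 genes with no call were TM7SF2, HSD17B7, DHCR7, INSIG1, INSIG2, SREBF2 and SCAP, of which 4 belong to sterol sensing. For INSIG1 this depended on the probe set, as further ones gave -0.92 and -0.49, against -0.23 for the one used. By the mean over probe sets 24 of the 33 genes passed, against 55% of all genes. Between JJN3 and RPMI-8226 10 genes passed, or 30.3%, against 15.5% of all genes, and all 10 were lower in JJN3, against 6.95%. FADS2 gave -0.96 ± 0.14, FDPS -0.59 ± 0.08, INSIG1 -0.59 ± 0.14, FADS1 -0.52 ± 0.09 and ACAT2 -0.43 ± 0.08. Without the JJN3 Control array 6 genes passed, against 12% of all genes. INSIG2 was 0.42 ± 0.16 higher in JJN3 and was not called (adjusted p 0.106). The plot of line means shows these orders.

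**Figure D4:**
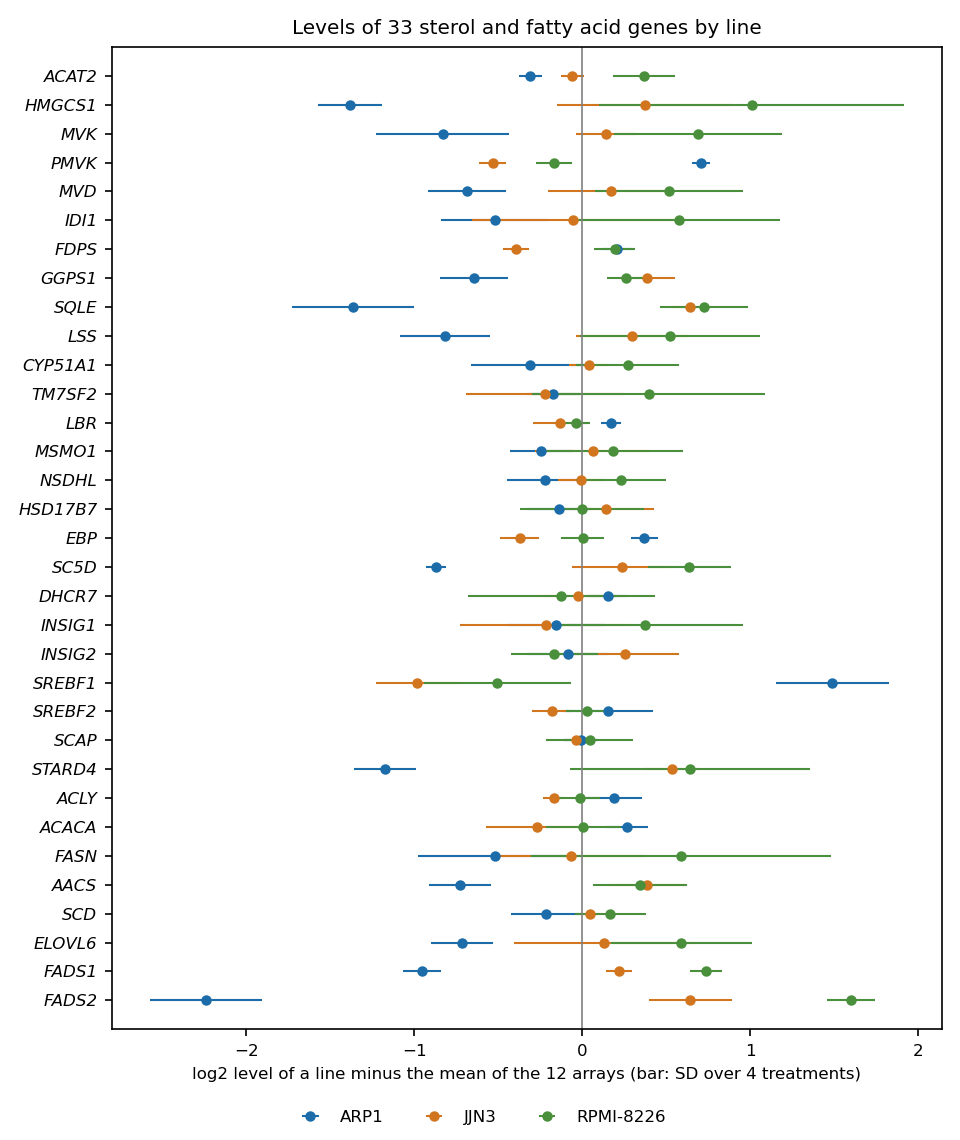
Mean log2 level of each line minus the mean of all 12 arrays (x axis; bar: SD over the 4 treatments of a line) for 33 genes in pathway order (y axis). ARP1 lies to the left for 24 genes, farthest for FADS2, HMGCS1 and SQLE, and far to the right for SREBF1, while the 3 means of SCAP lie close together.

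Other genes of sterol and fatty acid handling, outside the list, were taken from a list of 88, of which 78 were tested. With CPI203 10 of 78 passed on the average effect, or 12.8%, with 5 higher and 5 lower, against 7.28% of all genes. DGAT1, which makes triglyceride, rose by 1.23 ± 0.22 (adjusted p 0.0191). Its level with CPI203 alone was 6.45 in ARP1 (5.85 in Control), 8.64 in JJN3 (7.10) and 9.20 in RPMI-8226 (7.05), so the rise was largest outside ARP1. LPCAT3, which places polyunsaturated chains in phospholipids, rose by 0.59 (adjusted p 0.032), and PRKAA1, a catalytic subunit of the AMP-activated kinase, by 0.58 (adjusted p 0.0191). MBTPS2, the protease that makes the last cut releasing the sterol regulatory factors, gave -0.61 (adjusted p 0.0314), ACSL5 -0.59 (adjusted p 0.0217) and HACD3 -0.54 (adjusted p 0.0303). The last pair encode an acyl-CoA synthetase and a dehydratase of fatty acid elongation.

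With LenDex 6 of 78 passed, or 7.69%, with 2 higher and 4 lower, against 4.25% of all genes. LPIN1, a phosphatidate phosphatase, rose by 0.50 (adjusted p 0.0196) and NPC2, a lysosomal cholesterol carrier, by 0.34 (adjusted p 0.0375). ACSL4, another acyl-CoA synthetase, gave -0.50 (adjusted p 0.0209), SCARB1, the receptor for high-density lipoprotein, -0.41 (adjusted p 0.0159) and RNF145, a sterol-responsive ubiquitin ligase, -0.40 (adjusted p 0.0209). SCARB1 was also the 1 gene of the 78 called for LenDex against Control, with -0.61 (adjusted p 0.0485) and lower in 3 of 3 lines. In 6 of 6 pairs with LenDex 12 of the 78 were lower, or 15.4%, against 8.28% of all genes and beside the 42.4% of the synthesis genes. With Combo against Control 13 of 78 passed, or 16.7%, 4 higher and 9 lower, against 9.15% of all genes. The largest were DGAT1 (1.17), NPC1, the lysosomal cholesterol exporter (1.12), and LPIN1 (0.78), and on the lower side RNF145 (-0.88), MBTPS2 (-0.85) and ACSL4 (-0.77).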

How the data were processed

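Expression was measured on Affymetrix arrays from 150 ng of total RNA per sample, per the labels' protocols, on 12 arrays. Per the submitters' processing notes, the authors ran RMA (Affymetrix Expression Console 1.1), and what they deposited is a log2 level per probe set. RMA gives arrays a common distribution, so a change is relative to most transcripts. For joint normalisation of the 12 arrays, the answer is not given in the sources used here. Precision is limited by the number of arrays.

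Of 49386 probe sets the platform annotation pairs 45253 with 1 gene symbol and 1327 with several, and 2806 had none or were controls. Symbols were brought up to date through the RefSeq gene table. A gene's probe set of highest mean stood for it. For 9 of the listed genes (PMVK, LSS, CYP51A1, TM7SF2, HSD17B7, INSIG2, SCAP, STARD4 and FADS2) that probe set has the suffix _x_at, which marks probes that may match other transcripts. Genes with 3 or more arrays at 5 or above were tested with limma 3.58.1 under R 4.3.3, in a model of cell line plus treatment over all 12 arrays (6 residual degrees of freedom), two-sided, with Benjamini-Hochberg adjustment over all genes tested and a threshold of 0.05. Line was a block because same-named arrays come from the same line; deviations from treatment means correlated within a line at 0.820 to 0.938. Differences between lines in a drug effect used a moderated F test of line by drug terms (3 residual degrees of freedom). Levels of the lines were compared by two-sided contrasts in limma, in a model of line plus treatment, with the same adjustment and threshold. The fits were tested on simulated data with noise independent between arrays. Recovery was required only of effects larger than the treatment effects called here, so the simulation does not show how well those are recovered.

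The genes, lists, tests and the rule for named genes were chosen with earlier results of these data known. By that rule levels on every array are given for each gene called in a treatment comparison, a panel of 17 regulators and enzymes, and the 3 genes with the smallest p where none was called, and for other pathway genes the 3 largest rises and falls. Alternatives were another level filter or none, the mean over probe sets, cyclic loess, a variance trend with robust moderation, no block, arrays of the compared groups alone, each line or the JJN3 Control array left out, and JJN3 with RPMI-8226 averaged. Some genes of the pathway are not reported here.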

Additional observations from a re-analysis of the deposited data

Results flagged for a closer look

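Effects of opposite sign between lines, meaning that both matched pairs of 1 line moved one way and both pairs of another line the opposite way, were found with CPI203 for 6 of the 33 genes, or 18.2%, against 24.4% of all genes. With LenDex they were found for 8, or 24.2%, against 27.8%. Those genes that also reached an unadjusted p under 0.05 in the moderated F test between lines in limma are given here, and none passed after adjustment over all genes. They were 2 of the 33 for CPI203, against 7.12% of all genes, and 3 for LenDex, against 8.5%. For CPI203, TM7SF2 (p 0.000271, adjusted 0.0598) and LSS (p 0.000865, adjusted 0.0895) were lower in both ARP1 pairs and higher in both pairs of the other lines. For LenDex, MVK (p 0.0131, adjusted 0.259), LSS (p 0.00773, adjusted 0.221) and TM7SF2 (p 0.00949, adjusted 0.236) were lower in both ARP1 pairs and higher in both JJN3 pairs, and LSS also in both RPMI-8226 pairs. The other genes of opposite sign were FDPS, CYP51A1, ACLY and SCD with CPI203 and ACAT2, PMVK, INSIG2, SCAP and FADS1 with LenDex. The probe sets of TM7SF2 and LSS used here have the suffix _x_at.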

How the results depend on the processing

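No gene called in an average effect changed sign under any alternative. Of all 33 genes, 6 changed the sign of their CPI203 average and 9 that of their LenDex average under at least 1 alternative, and none of these passed the threshold there. By the mean over probe sets the LenDex average of FADS2 was -0.05 and that of LBR -0.11, in place of 0.24 and 0.12. Counts are of the 33 genes called in limma, with the share of all genes called in parentheses. With a variance trend and robust moderation 2 were called for CPI203 against Control (2.09%) and 2 for LenDex against Control (1.89%), 1 for Combo against CPI203 (0.567%), 11 for the LenDex average (6.78%), and 6 (4.44%) and 2 (3.1%) for the line differences in the CPI203 and LenDex effects. With genes at a mean level of 6 or more there were 6 for Combo against Control (21.4%), 10 for the LenDex average (12%) and 1 for the CPI203 effect between lines (0.987%), which had 2 by the mean over probe sets (0.785%). Without the replicate block for line, Combo against Control (0.0198%), the CPI203 average (0%) and the LenDex average (0.00659%) had 0, with 3, 2 and 5 of the 33 at an unadjusted p under 0.05. With JJN3 and RPMI-8226 averaged they again had 0 (0.0214%, 0% and 0.0285%). Combo against Control had 0 from its own arrays alone (0%). Leaving out 1 line or the JJN3 Control array gave 0 to 6 for CPI203 against Control (0% to 7.49%), 0 to 6 for Combo against Control (0% to 16.2%), 0 to 2 for Combo against LenDex (0% to 5.25%), 0 to 11 for the CPI203 average (0% to 17.5%), 0 to 4 for the LenDex average (0.014% to 6.7%) and 6 at the lowest for JJN3 against RPMI-8226 (12%), where the main count was 10. Genes in every matched pair then numbered 7 to 16 for CPI203 higher (8.9% to 19.8% of all genes), 5 to 7 for CPI203 lower (10.3% to 18.3%) and 0 to 2 for LenDex higher (8.23% to 15.9%), and the last was 2 by the mean over probe sets, or 6.06%, against 6.04% of all genes. Of the single-gene values in treatment comparisons 274 kept their side of the threshold, 80 no longer passed and 9 newly passed. After cyclic loess the share of called genes, over all genes, that were higher went from 100% to 75% for CPI203 against Control, from 52.9% to 73.5% for LenDex against Control and from 57.1% to 83.3% for Combo against CPI203. The causes were not tested.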
